A study of Drosophila melanogaster with 3 samples.

Results

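The 9 genes described here encode insulator and architectural proteins of Drosophila melanogaster: Chro, Cp190, Trl, CTCF, BEAF-32, su(Hw), mod(mdg4), Ibf1 and Ibf2. They were taken as a list of names, without a cutoff on any measured value. The list was chosen with earlier results of these data known. The 9 are among 13968 protein-coding genes in the annotation. A deposited region was assigned to one of them when its summit, the position of highest enrichment, lay inside the gene or within 2 kb of either end (dm6 build). Regions of the authors' thresholded list, 3582 in all, are called peaks. Of the peaks, 9 lay in or near these genes, and they fell on 4 genes: Chro and Cp190 with 1 each, Trl with 3 and mod(mdg4) with 4. CTCF, BEAF-32, su(Hw), Ibf1 and Ibf2 had none.

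The assay was chromatin immunoprecipitation followed by sequencing (ChIP-seq) of wek, a zinc-finger protein known from Toll signalling. All 3 biological replicates form 1 group: whole embryos aged 0 to 16 hours, both sexes pooled, from a single transgenic line whose wek protein carries GFP at its C terminus. The free-text label calls each library an input control, while the antibody and assay labels say ChIP of wek, and the libraries are treated as ChIP of wek. Whole embryos mix many tissues and stages, the labels do not say whether untagged wek is present as well, and no untagged line was analysed here, so no comparison between groups and no test could be made. Read numbers are not part of the lists and the depth is unknown. Of 30000 regions in each replicate list, those reaching a q-value of 0.01 or lower numbered 8919 for replicate 1, 2216 for replicate 2 and 9834 for replicate 3.

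Insulator proteins bind DNA at the borders of chromatin domains and in promoters, where they can limit contact between an enhancer and a promoter or hold distant sites together. In the fly some of them read a DNA sequence directly (CTCF, BEAF-32, su(Hw), GAGA factor and the Ibf proteins), and others, such as Cp190, Chromator and Mod(mdg4), are brought in by these and join them into complexes. The measurements concern wek signal at the genes that encode these proteins, not at the sites the proteins occupy.

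With a peak in or near the gene, 4 of 9 genes (44.4%) stood beside 29.3% of all coding genes counted in the same way. With a peak summit within 500 bp of an annotated transcription start site (TSS), 3 of 9 (33.3%: Chro, Cp190 and Trl) stood beside 15.4%. Both shares were above the background, each by fewer than 2 genes, and the share of coding genes with a peak also depended on gene length: it was 19.8% up to 2 kb, 29.4% from 2 to 5 kb, 41.3% from 5 to 10 kb, 47.5% from 10 to 20 kb and 54.6% over 20 kb. The 4 genes with a peak measured 26.6 kb (mod(mdg4)), 13.1 kb (Trl), 5.3 kb (Chro) and 4.8 kb (Cp190). The 5 without one measured 4.1 kb (su(Hw)), 3.1 kb (CTCF), 2.2 kb (BEAF-32), 1.4 kb (Ibf1) and 0.8 kb (Ibf2), so every gene with a peak was longer than every gene without. The part of length in these counts was not tested.

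The same counts were made in each replicate from its 3582 regions of highest signal, called its highest regions. For replicate 2 these outnumber the 2216 regions that reached a q-value of 0.01. In or near the gene, replicate 1 gave 4 of the 9 genes, replicate 2 gave 5 and replicate 3 gave 4, beside 29.5%, 27.3% and 28.9% of coding genes in the same order of replicates. At a TSS the counts were 3, 4 and 4 (3.67 ± 0.577, SD, n = 3), beside 16%, 13% and 16.1%. Chro, Cp190, Trl and mod(mdg4) were the genes in every replicate, and replicate 2 added BEAF-32. At a TSS, Chro, Cp190 and Trl were in every replicate, replicate 2 added BEAF-32 and replicate 3 added mod(mdg4). The BEAF-32 region of replicate 2 had a −log10 q-value of 1.654, short of a q-value of 0.01. Counting every pooled region, however weak, 7 of the 9 genes had one, beside 73.9% of coding genes. CTCF and su(Hw) were those without.

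**Figure D1:**
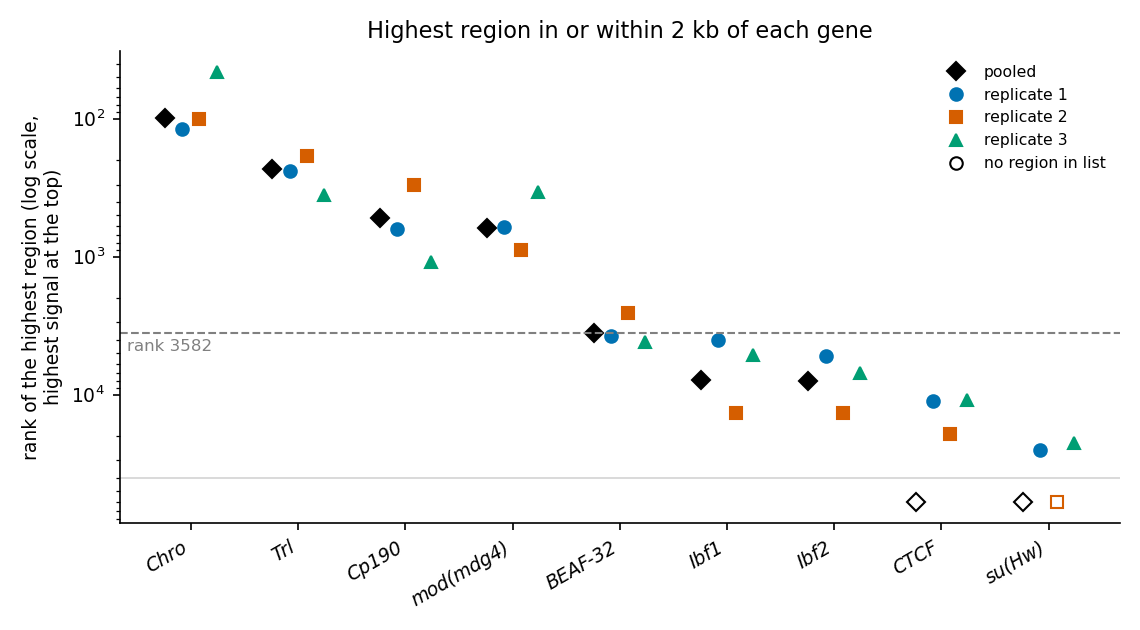
Rank of the highest region in or within 2 kb of each of the 9 genes, in the pooled list and in each replicate (log scale, highest signal at the top); the dashed line marks rank 3582, and open symbols below the grey line mark lists with no region. Chro, Trl, Cp190 and mod(mdg4) lie above the dashed line in all 4 lists, while BEAF-32 lies at it and the other 4 genes below it.

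Ordered by the mean rank of the highest region over the replicates, Chro came first at 88.0 ± 37.5, then Trl at 261 ± 88.8, mod(mdg4) at 619 ± 280 and Cp190 at 677 ± 403 (SD, n = 3 each). BEAF-32 followed at 3501 ± 846, Ibf1 at 7609 ± 5286 (a mean of 4574 without replicate 2), Ibf2 at 8619 ± 4468 and CTCF at 13744 ± 4703. The replicate ranks of Chro did not overlap those of Trl, and those of Cp190 did not overlap those of BEAF-32. Every other pair of neighbours in that order overlapped. The highest region of a gene was not always the same one in each replicate. For mod(mdg4) it lay beyond the 3′ end in replicates 1 and 3 and inside the gene in replicate 2. For su(Hw), replicate 1 gave rank 25052 and replicate 3 gave rank 22322, both beyond the CTCF ranks, and replicate 2 held no region. No region of CTCF or su(Hw) reached a q-value of 0.01 in any replicate. In replicate 2 none of BEAF-32, Ibf1 or Ibf2 did either. The signal is the authors' own value per region and is compared only within a list, so ranks are used across lists.

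Chro (FBgn0044324, chr3L:22873702-22878984, minus strand) encodes Chromator, a chromodomain protein of polytene interbands and of the mitotic spindle matrix that is found with BEAF-32 at domain borders. Its peak, chr3L:22878742-22879049, ranked 98 of 3582 with a signal of 1207. The replicates ranked it 118, 100 and 46, with signals of 571, 328 and 317 on their own scales. The summit lay in the 5′ UTR, 84 bp downstream of the most upstream Chro TSS, and the replicate summits were 24, 3 and 17 bp away from it. Ssl1, which encodes a subunit of the general transcription factor TFIIH, starts head to head with Chro 105 bp away, and its TSS lay 189 bp from the summit. The peak therefore covers a shared promoter and cannot be given to one of the genes.

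The bases between the Chro and Ssl1 starts are shown because this is the strongest promoter of the set, together with the bases at the summit. Both are the minus strand of the RefSeq genome of the dm6 assembly, read in the direction of Chro: chr3L:22878985-22879088 (104 bp, 51.0% G or C) and chr3L:22878886-22878914. Capitals mark TATCG, which is CGATA on the other strand, the core of the sites known for BEAF-32 and DREF.
Ssl1 to Chro: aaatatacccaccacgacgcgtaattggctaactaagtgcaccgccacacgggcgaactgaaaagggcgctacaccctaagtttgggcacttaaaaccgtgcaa
Chro summit: ctgcagttagtttaaagcTATCGacaggc
Between the start sites none of the 8 elements searched was present. The CGATA at the summit began 8 bp from it, in the transcribed part.

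Cp190 (FBgn0000283, chr3R:15270432-15275241, minus strand) encodes a BTB and zinc-finger protein that CTCF, su(Hw) and BEAF-32 sites have in common. Its peak, chr3R:15275264-15275537, had a signal of 466.5 and ranked 526. The replicates ranked it 628, 300 and 1102 (677 ± 403). The summit was 88 bp upstream of Cp190 and 193 bp upstream of CG4338, a gene of no stated function in these files that starts head to head with Cp190, 281 bp away. The replicate 1 summit was at the same base, that of replicate 2 was 22 bp away, and that of replicate 3 was 160 bp away, nearer to CG4338. A further pooled region had the same start and end, a summit inside the CG4338 5′ UTR and rank 4199. The summit of replicate 3 lay between these 2 pooled summits.

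The whole interval between Cp190 and CG4338, chr3R:15275238-15275521 (284 bp, 28.9% G or C), is shown from CG4338 to Cp190 on the minus strand, because both replicate positions lie in it. Capitals mark GGTGGCGC, part of the CTCF site, CGATA in either direction, and the DNA replication-related element TATCGATA, the site of the factor DREF, which contains CGATA on both strands.
CG4338 to Cp190: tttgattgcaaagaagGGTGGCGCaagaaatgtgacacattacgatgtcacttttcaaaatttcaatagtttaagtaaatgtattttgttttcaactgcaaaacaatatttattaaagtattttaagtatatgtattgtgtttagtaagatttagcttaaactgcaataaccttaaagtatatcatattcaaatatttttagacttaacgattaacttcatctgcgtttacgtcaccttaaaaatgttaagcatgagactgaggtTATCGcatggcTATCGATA
The interval held 1 TATCGATA, which ran over the Cp190 start so that 4 of its bases were in the 5′ UTR. It also held 3 matches to CGATA, of which 2 were inside the TATCGATA. All of these matches lay outside the called peak, on its Cp190 side. GGTGGCGC began at base 17, next to the CG4338 start and more than 100 bp from the Cp190 peak summit. It was still inside the called peak, between the replicate 3 summit and the summit of the further pooled region. Apart from these elements the interval was largely A and T, against 51.0% G or C in the Chro and Ssl1 interval.

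Trl (FBgn0013263, chr3L:14747929-14761049, minus strand) encodes GAGA factor, which binds GAGAG repeats and opens chromatin at promoters. It had 3 peaks, a number that 2.99% of coding genes reached, and 9.84% of those of 10 to 20 kb. The gene has 4 annotated start sites and 10 transcripts, and the peaks lay between the most upstream start and a point just past the most downstream one. None was at the most upstream start.

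The highest Trl peak, chr3L:14759369-14759670, lay in an intron, 1520 bp upstream of the nearest Trl TSS. Its signal was 740 and its rank 232, and the replicates ranked it 238, 186 and 359 (261 ± 88.8), with summits 11, 31 and 9 bp away. It was thus high in all 3 replicates, and no coding TSS lay within 500 bp. Of all peaks, 51.1% had a coding TSS at that distance. The middle peak, chr3L:14758051-14758420, was 274 bp upstream of a TSS that Trl shares with CG42507, an overlapping gene on the same strand. Its signal was 232 and its rank 1629. Replicates 1 and 3 ranked it 1073 and 1983, and replicate 2 ranked it 27982 with a summit 82 bp away, so the mean rank was 10346 over all 3 replicates and 1528 without replicate 2. The lower peak, chr3L:14757030-14757399, was 121 bp downstream of the most downstream Trl TSS, in a 5′ UTR. It had a signal of 288.5, rank 1132, and replicate ranks of 1720, 1430 and 687 (1279 ± 533). The middle peak was the only one of the 3 that a replicate did not hold among its highest regions.

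The 151 bp around the summits of the upper and the middle Trl peak are shown on the minus strand, because one of them holds the binding word of the protein that the gene encodes. They are chr3L:14759407-14759557 (29.8% G or C) and chr3L:14758161-14758311 (43.0%). Capitals mark TATAAA in either direction, and CTCTC, which is GAGAG on the other strand. TATAAA is the word of the TATA box, but it was matched at any distance from a start site.
Trl upper intron: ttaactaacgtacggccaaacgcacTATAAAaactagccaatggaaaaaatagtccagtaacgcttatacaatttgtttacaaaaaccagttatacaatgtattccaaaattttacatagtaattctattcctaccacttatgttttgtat
Trl middle: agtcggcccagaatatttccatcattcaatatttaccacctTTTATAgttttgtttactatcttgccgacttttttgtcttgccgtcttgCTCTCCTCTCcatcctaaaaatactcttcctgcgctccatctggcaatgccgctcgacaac
The middle peak held 2 matches to GAGAG in a run of 10 bases, beginning 24 and 19 bp from the summit. The upper peak, which had the higher rank, held none, and the lower peak had none within 150 bp of its summit. Within 100 bp of the summit, GAGAG was at 29.3% of all peaks.

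mod(mdg4) (FBgn0002781, chr3R:21350846-21377401, minus strand) encodes BTB proteins, 1 of which partners su(Hw) at the gypsy insulator. The gene is known for trans-splicing: a common 5′ part made from one strand is joined to many alternative last exons, some of them transcribed from the other strand. It had 4 peaks, a number that 1.2% of coding genes reached, and 10.3% of those over 20 kb. None lay within 500 bp of its single annotated TSS.

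The peak farthest upstream, chr3R:21378603-21378972, was 1387 bp upstream of mod(mdg4) and 189 bp upstream of tin, the homeobox gene tinman of heart formation, which starts head to head with mod(mdg4) 1576 bp away. Its signal was 174 and its rank 2646, the lowest of the 9 peaks, and replicate ranks were 4468, 2636 and 1940 (3015 ± 1306). The region of replicate 2 had a −log10 q-value of 1.632, short of a q-value of 0.01. By position the peak was nearer to tin. The second, chr3R:21376315-21376684, lay in the intron 901 bp downstream of the mod(mdg4) TSS with a signal of 247 and rank 1467. Replicates 1 and 3 ranked it 943 and 807, and the list of replicate 2 held no region there. At the TSS itself the pooled list had a region below the peaks, with its summit 1 bp from the start and rank 3731. Replicate 1 ranked it 3829 and replicate 3 ranked it 3400, and again replicate 2 had none.

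The third peak, chr3R:21365283-21365652, lay 11933 bp inside the gene. In the Ensembl annotation the precursors of the trans-spliced transcripts are separate genes, 23 named pre-mod(mdg4), of which 9 are on the plus and 14 on the minus strand. The peak summit was 20 bp downstream of the start of pre-mod(mdg4)-E, in its 5′ UTR. It was 141 bp upstream of the common start of pre-mod(mdg4)-AD, -AE, -U, -V, -W, -X and -Y, which run on the opposite strand, and 178 bp upstream of pre-mod(mdg4)-AB and -C. So this 1 peak lay within 500 bp of a start of 10 of the 23 precursors, and no other peak lay that near to any of them. Its signal was 297 and its rank 1087, and the replicates ranked it 1223, 902 and 2465 (1530 ± 825), with summits 1, 3 and 38 bp away.

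RefSeq describes the locus as 5 segments on alternating strands, and the inner peak lies where the segment from chr3R:21365609 on the plus strand and the segment from chr3R:21365488 on the minus strand begin. The 120 bp between these starts, chr3R:21365489-21365608 (44.2% G or C), are shown on the minus strand because they separate the oppositely directed precursors, and a stretch beside the summit, chr3R:21365423-21365446, because it holds TGCATA, the core of su(Hw) sites. Capitals mark TGCATA in either direction, here 2 overlapping matches.
pre-mod(mdg4) inner starts: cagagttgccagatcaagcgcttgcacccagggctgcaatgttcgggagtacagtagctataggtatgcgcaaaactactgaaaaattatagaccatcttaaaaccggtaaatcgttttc
mod(mdg4) inner peak: aataccaaTATGCATAttttgcta
The interval between the starts held none of the 8 elements searched. Within 100 bp of the summit, TGCATA was at 1 of the 9 peaks and at 13.7% of all peaks. Within 150 bp it was also at the mod(mdg4) peak near tin.

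The other precursor starts had weaker regions or none. At the start of pre-mod(mdg4)-AA, -N and -O, a pooled region had its summit 11 bp from the start and rank 3792, and the replicates ranked it 3923, 18220 and 4448. At the start that pre-mod(mdg4)-B, -G, -H, -I, -J, -K, -L and -P share, the pooled summit was 105 bp away and ranked 8455, with ranks 6276 and 5851 in replicates 1 and 3 and no region in replicate 2. The start of pre-mod(mdg4)-T and -Z had no pooled summit within 500 bp. Of the starts along the locus, that of the inner peak was the one where the pooled list and all 3 replicates held one of their 3582 highest regions.

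The fourth peak, chr3R:21350119-21350300, lay beyond the 3′ end of mod(mdg4) and 616 bp upstream of aus, so no coding TSS was within 500 bp. It was the highest of the 4, with a signal of 418 and rank 617. The replicates ranked it 614, 1530 and 342 (829 ± 622, and a mean of 478 without replicate 2), with summits 12, 0 and 2 bp away. Replicate 3 alone had a further highest region, rank 2165, in the 5′ UTR of aus. The 151 bp around the summit, chr3R:21350142-21350292 (41.7% G or C), are shown on the minus strand because this was the narrowest of the 9 peaks, at 182 bp. Capitals mark GAGAG and TATAAA, both as they read from the opposite strand.
mod(mdg4) 3′ flank: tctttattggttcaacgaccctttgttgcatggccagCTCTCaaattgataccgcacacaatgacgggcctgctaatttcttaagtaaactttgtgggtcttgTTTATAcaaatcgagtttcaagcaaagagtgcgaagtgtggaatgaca
The GAGAG began 34 bp from the summit.

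**Figure D2:**
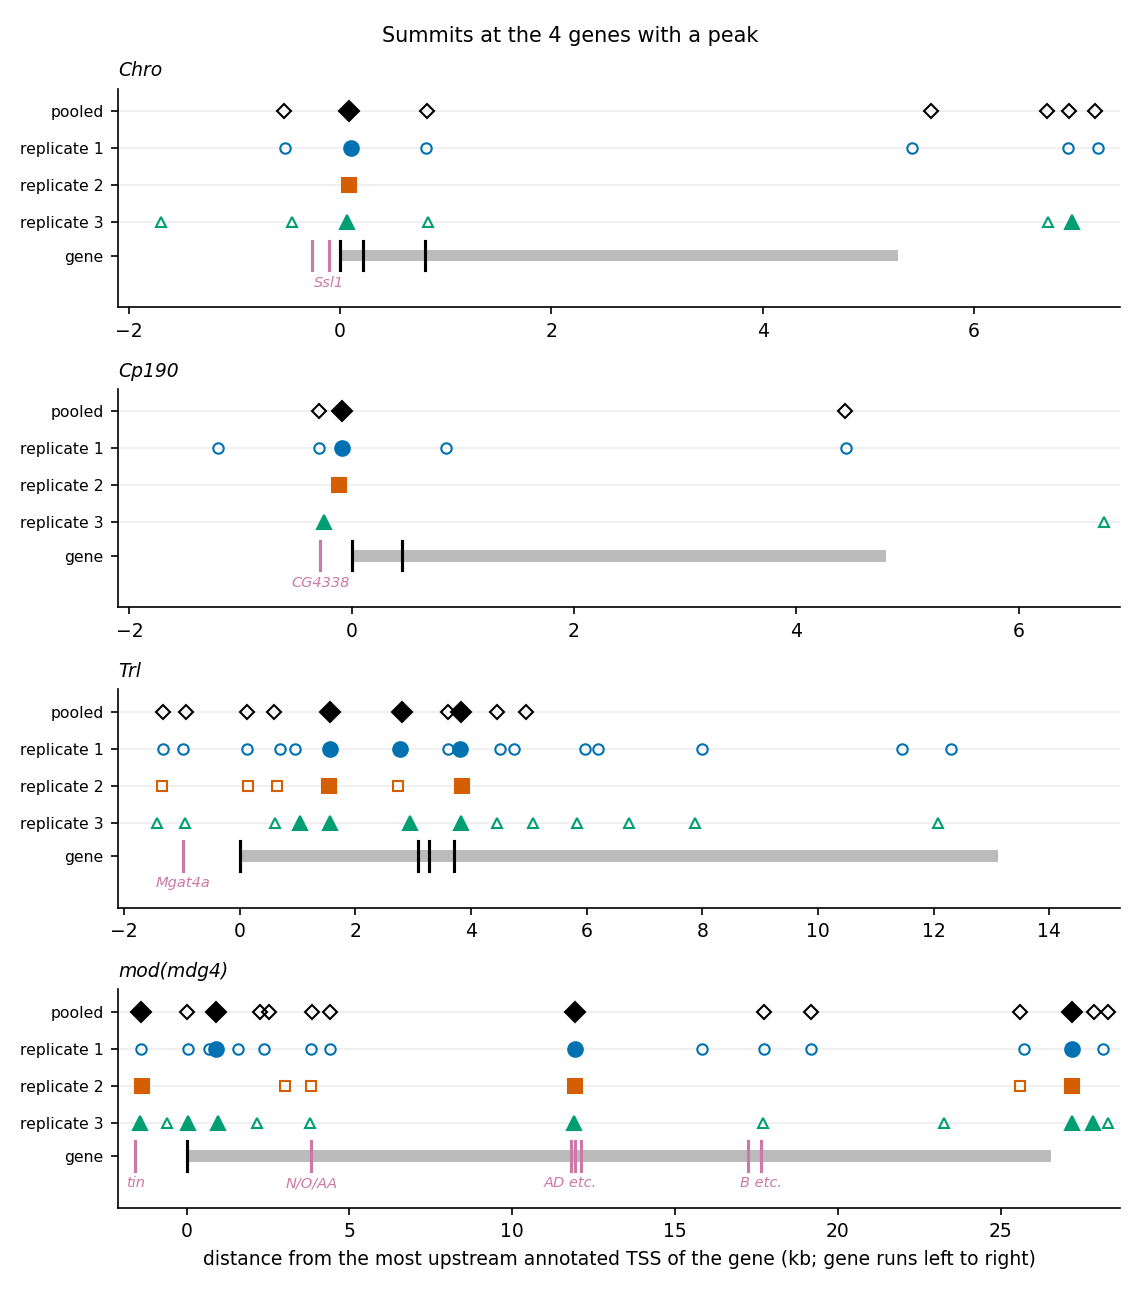
Summits in the pooled list and the replicates along Chro, Cp190, Trl and mod(mdg4), by distance in kb from the most upstream TSS, each gene running left to right; filled symbols are among the 3582 regions of highest signal of their list and open symbols are not. Grey bars are the genes, black ticks their TSSs and purple ticks the TSSs of named neighbours or precursors; the inner mod(mdg4) peak stands at a group of precursor starts 11933 bp into the gene.

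As a group, the 9 peaks were in the stronger part of the list: 8 of 9 were among the 1791 of highest signal, which are 50% of all peaks, and their median rank was 1087 of 3582. All 3 replicates held an overlapping highest region for 6 of 9, beside 48.8% of all peaks, and 2 replicates did for the other 3. Of these 3, replicate 2 failed the middle Trl peak and the mod(mdg4) peak in the intron, and replicate 1 failed the peak at tin. The 48.8% covers peaks of every signal, and support among peaks of like signal was not counted. Replicate 2 is also the one with the fewest regions at these genes, 19 against 57 in replicate 1, 48 in replicate 3 and 46 in the pooled list. It also had the fewest regions at a q-value of 0.01 or lower, and the part of that in the missing regions was not tested.

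**Figure D3:**
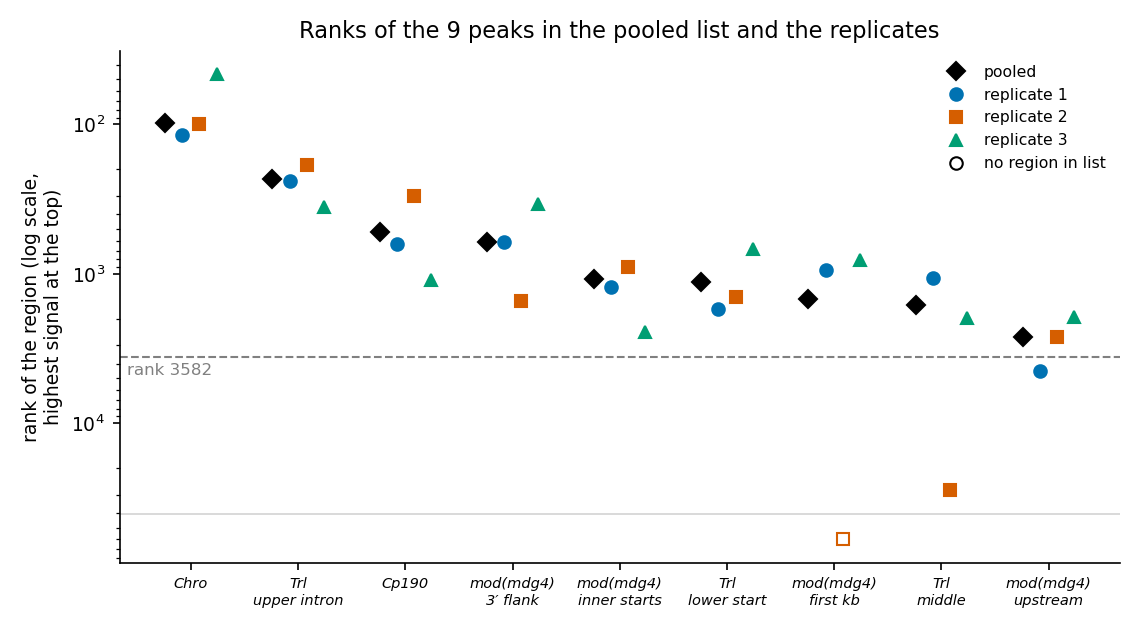
Rank of each of the 9 peaks in the pooled list and of the highest overlapping region in each replicate (log scale, highest signal at the top), with the dashed line at rank 3582 and open symbols below the grey line where a list held no region. Replicate 2 falls to rank 27982 at the middle Trl peak and has no region at the mod(mdg4) peak in the first kb, and the other peaks keep ranks of 4468 or better in every replicate.

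By place, 3 of the 9 summits were in a 5′ UTR, 3 in an intron and 3 between genes, beside 17.5%, 44.7% and 35.0% of all peaks in the same order. At least 1 coding gene, own or other, had a TSS within 500 bp of 6 of the 9 summits, and at least 2 did for 4 of 9. Of all peaks, 51.1% had at least 1 coding gene at that distance and 13.8% at least 2. Of the 4, the inner mod(mdg4) peak counts 10 overlapping precursors, and at the middle Trl peak CG42507 shares its TSS with Trl. A gene other than that of the list was within 500 bp at 5 of the 9, namely Ssl1, CG4338, CG42507, tin and the pre-mod(mdg4) group. At the 4 peaks within 500 bp of an own TSS, Chro, Cp190 and the middle Trl peak were shared with a neighbour and the lower Trl peak was not. A peak narrower than the commonest width of 370 bp occurred 4 times in 9, beside 36.5% of all peaks. These 4 were also the 4 of highest signal.

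Within 100 bp of the 9 summits, on both strands, TATAAA was in 5 peaks (Chro, the upper and middle Trl peaks, and the mod(mdg4) peaks at tin and in the 3′ flank), beside 23.6% of all peaks and 26.9% of windows of the same length at 19275 coding start sites. CGATA was at 3 (Chro, Cp190 and the mod(mdg4) peak in the intron), beside 30.6% of peaks and 37.1% of start-site windows. GAGAG was in 3 (the middle Trl peak and the mod(mdg4) peaks in the intron and the 3′ flank), beside 29.3% and 25.0%. TATCGATA was at Cp190 only, beside 3.88% and 6.44%. The TATCGATA and CGATA matches at Cp190 were within 100 bp of its summit but outside the called peak. GGTCACAC, the site of M1BP, GGTGGCGC, and GAATACCC, a word picked earlier in these same data, were within 100 bp of none of the 9 summits. GGTGGCGC was inside the Cp190 peak, but farther from its summit. Within 100 bp of the summit, the 3 words were at 3.77%, 1.03% and 2.9% of all peaks, in the order named. The counts over 9 peaks are descriptions, and apart from TATAAA each lay within 1 peak of the share in all peaks.

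BEAF-32 (FBgn0015602, chr2R:14770469-14772630, plus strand) encodes a factor that binds CGATA near housekeeping promoters. It fell just short of the thresholded list. Its highest pooled region had a signal of 146.25 and rank 3585, where the last peak had 146.29 and rank 3582. That region was 1166 bp upstream of BEAF-32 and 120 bp downstream of the start of Spred, an inhibitor of Ras signalling that starts head to head with BEAF-32 1046 bp away. Replicates 1 and 3 ranked it 3787 and 4167, and replicate 2 had no region there. A separate pooled region, rank 5248, had its summit 10 bp upstream of an inner BEAF-32 TSS. Replicate 2 ranked this one 2550, among its highest regions though short of a q-value of 0.01, and replicate 3 ranked it 7118. The replicates thus placed their highest region at different starts, and the nearest peak was 80149 bp from the gene.

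Ibf1 (FBgn0037670, chr3R:9258964-9260400, plus strand) and Ibf2 (FBgn0037669, chr3R:9257727-9258501, minus strand) encode related proteins that bind DNA together and recruit Cp190. They start head to head, 463 bp apart, and share most regions. The highest pooled region near Ibf1 ranked 7812 and lay at the start of ATP6AP2, which encodes an accessory protein of the vacuolar ATPase. The pooled region nearest to the Ibf2 start ranked 8036, with the summit 171 bp downstream of it, and the one nearest to the Ibf1 start ranked 10523, 398 bp downstream. No pooled summit lay between the 2 starts. The highest replicate ranks were 4009, 13678 and 5140 for Ibf1 and 5215, 13678 and 6963 for Ibf2, where the value of replicate 2 is the same region. The nearest peak was at pum, 21846 bp from Ibf1 and 20609 bp from Ibf2.

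CTCF (FBgn0035769, chr3L:7353578-7356713, minus strand) encodes the zinc-finger protein best known from vertebrate domain borders. It had no pooled region. Replicate 1 had a region 111 bp upstream of the TSS at rank 11105, replicate 3 one 208 bp downstream of it at rank 10953, and replicate 2 only one beyond the 3′ end at rank 19174. The nearest peak was strong, with a signal of 919 and rank 166, and lay 3454 bp from CTCF, within 500 bp of starts of pst and Sec63 and outside the 2 kb distance. su(Hw) (FBgn0003567, chr3R:14304455-14308589, minus strand) encodes the zinc-finger protein of the gypsy insulator. It too had no pooled region. Replicate 1 had one 135 bp downstream of its TSS at rank 25052, the best in replicate 3 was at the Polr2I start at rank 22322, and replicate 2 had none. None of the replicate regions at CTCF or su(Hw) reached a q-value of 0.01. The peak nearest to su(Hw) ranked 1958 and lay 4287 bp away.

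**Figure D4:**
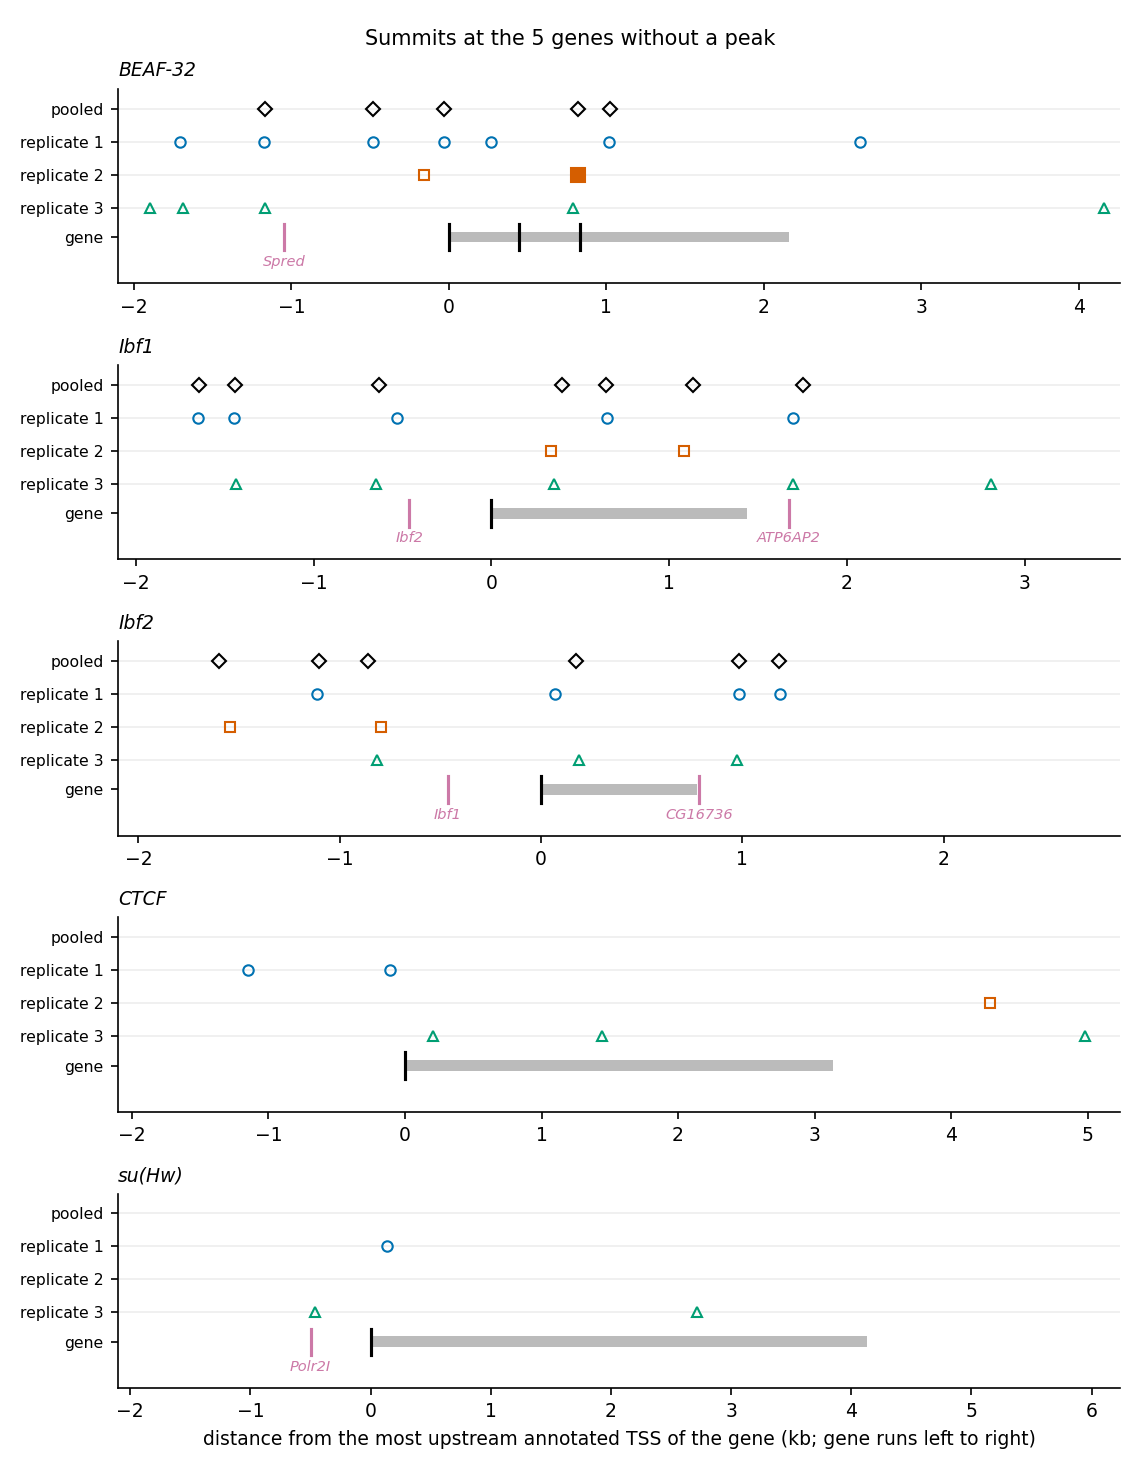
Summits in the pooled list and the replicates along BEAF-32, Ibf1, Ibf2, CTCF and su(Hw), by distance in kb from the most upstream TSS, each gene running left to right; filled symbols are among the 3582 regions of highest signal of their list and open symbols are not. The single filled symbol is the replicate 2 region at rank 2550 by an inner BEAF-32 start, and CTCF and su(Hw) have no pooled region.

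Beside the 33.3% of the 9 genes with a peak at a TSS, 8 of 22 other genes of architectural proteins (36.4%) had one. In or near the gene the shares were 44.4% of the 9 genes and 45.5% of the 22 (10 genes). At a TSS the replicate counts of the 22 were 7, 5 and 8 (6.67 ± 1.53, SD, n = 3). The highest of these was pita, a zinc-finger insulator factor, with a signal of 1671 and rank 47, with a start of the caspase gene Dcp-1 within 500 bp. Next was Dref, which encodes the factor that binds TATCGATA, with a signal of 635 and rank 315, shared with the ribosomal protein gene RpL13. It was followed by shep, an RNA-binding antagonist of the gypsy insulator, at 303 and rank 1046. Rm62, psq, pzg, lolal and fs(1)h ranked from 2043 to 3111, below the lower Trl peak. Of the 8, pita alone ranked above Chro.

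Cohesin genes had a peak at a TSS in 4 of 11 (36.4%; wapl, pds5, SMC1 and eco), and Polycomb and trithorax group genes in 6 of 28 (21.4%; ph-p, pho, brm, E(z), jing and mor). The replicate counts were 4, 2 and 3 for cohesin and 8, 7 and 9 for the Polycomb and trithorax group. wapl, which encodes a factor that releases cohesin from DNA, had a signal of 2125 and rank 20, above every other gene of these lists. In or near the gene, 4 of the 9 genes and 20 of the 28 Polycomb and trithorax group genes (71.4%) had a peak. Median lengths were 4135 bp for the 9 genes, 7348 bp for the Polycomb and trithorax group, 4444 bp for cohesin, 3881 bp for the other architectural genes and 2164 bp for all coding genes. Counting only the 1791 peaks of highest signal, the TSS share was 33.3% for the 9 genes, 13.6% for the other architectural genes, 18.2% for cohesin, 10.7% for the Polycomb and trithorax group and 8.48% for all coding genes. The order of the lists thus depended on the depth of the peak list, and no list was tested against another.

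**Figure D5:**
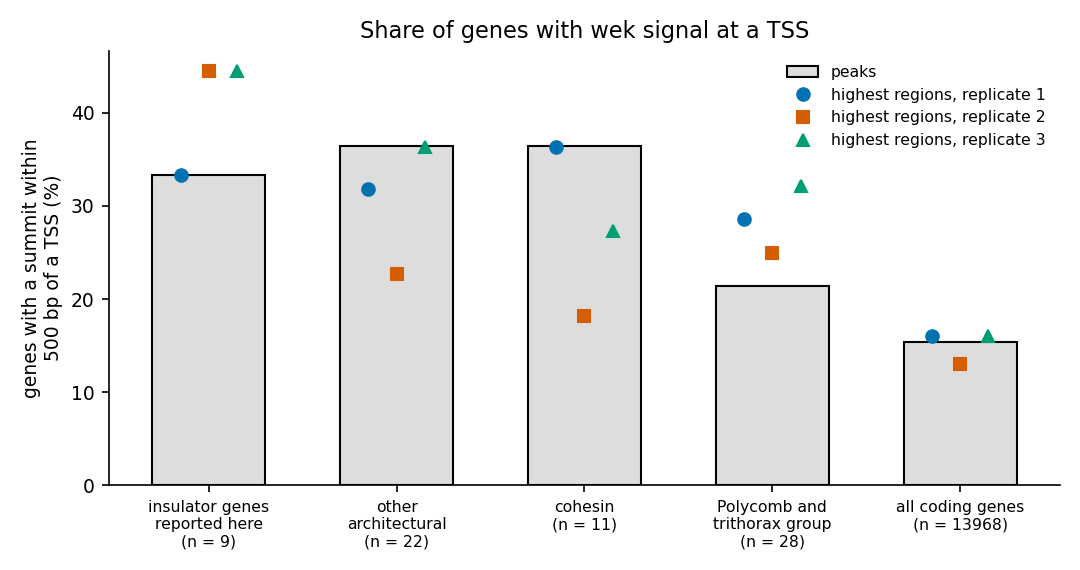
Percent of genes with a summit within 500 bp of a TSS, for the 9 genes, 3 other lists and all coding genes; bars count peaks and points count the 3582 highest regions of each replicate, and n is the number of genes. The 9 genes stand at 33.3% in peaks, with replicates between 3 and 4 genes, and all coding genes stand at 15.4%.

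Genes whose strongest TSS peak had ranks most like those of a listed gene were sought over the 3 replicates, by the distance between log10 ranks among 1792 genes. Nearest to Chro was RpL24, which encodes a ribosomal protein (distance 0.141; ranks 88, 115 and 47), then CG11309 and CG7632, which share 1 peak (0.145). Nearest to Cp190 was CG12316 (0.101; ranks 534, 354 and 1084), then pho (0.105) and bbx (0.13). Nearest to the lower Trl peak was CG42671 (0.0926; ranks 1836, 1206 and 767), then CG15390 and CG3609 on 1 peak (0.103). The distance is a description over 3 points.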

How the data were processed

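The starting point was 5 deposited lists of regions, 1 for each of 3 replicates, 1 for the pooled replicates (30000 regions each) and the authors' thresholded list of 3582 regions. By its name the pooled list holds background as well as peaks. Each of the 3582 matched one of the 3582 strongest pooled regions in position, summit and signal. Per the labels, coordinates are dm6 and chromatin was sonicated to 200 to 800 bp. The threshold is, like the aligner and peak caller, not given in the sources used here. The signal of each region, its −log10 q-value and its summit position are the authors' values as deposited. Regions were ranked by signal within a list. A replicate supported a peak when at least 1 bp overlapped one of its 3582 highest regions.

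Genes and start sites came from Ensembl release 115. Sequence came from RefSeq, which holds the same dm6 assembly. Python 3.11.15, pandas 2.3.3 and numpy 2.4.6 were used, and the assignment of regions to genes was tested on simulated data. Elements were searched in both directions, up to 100 bp from each summit. The genes named are the 9, every coding gene with a TSS within 500 bp of one of their peaks, other architectural genes with a TSS peak (up to 10), and the 3 genes most alike in replicate ranks. Others were named after their values were seen. The genes and lists were chosen with earlier results of these data known. With 1 group there was no test. Distances, list depth, overlap, replicates and windows were varied as alternatives. Nothing in the labels says how the biological replicates were collected, so their spread may include technical differences.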

Additional observations from a re-analysis of the deposited data

How the results depend on the processing

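Of 92 alternatives, 6 moved a count by 1.5 times or more. The 92 include mean ranks with 1 replicate left out, judged against their SD over the replicates. Leaving out 1 of 3 always shifts a mean by less than that SD, so these could not move and say nothing on stability. That SD is wide: without replicate 2 the mean rank was 1528 (10346 with all 3) at the middle Trl peak, 478 (829) at the mod(mdg4) 3′ flank and 4574 (7609) for Ibf1. The means per gene without a replicate were added after the data were seen. With 5 kb in place of 2 kb, 6 of the 9 genes (66.7%) had a peak in or near the gene instead of 4, adding CTCF and su(Hw), beside 40.7% of all coding genes. Among the 1791 peaks of highest signal, 3 of the 22 other architectural genes had a TSS peak instead of 8, and 3 of the 9 genes did, as in the full list. Windows of 50 bp left TATCGATA at 0, CGATA at 1 and GAGAG at 2 of the 9 peaks, and windows of 150 bp put TGCATA at 2. The count of genes with a peak was 3 inside the gene only, beside 11.4% of all coding genes, and 3 to 4 had one at a TSS under the other distances and lists. With 1 replicate left out, 6 to 8 of the 9 peaks were supported by the remaining replicates, and the counts of 4 and 3 genes were the same. The peaks were called on the pooled replicates, so the replicate left out still contributed to them. The unchanged gene counts therefore say little on stability. Asking for fewer replicates could only keep or raise the main count of 6 supported peaks. Reciprocal overlap of 50% gave 5 supported peaks, and all replicate regions gave 8. Read depth is not given in the lists, so for a gene without a region low and absent signal cannot be told apart. No paired analysis was possible because all libraries form 1 group.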
